A study of Mus musculus with 37 samples.

Results

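A set of 9 type I interferon response genes, *Ifit1*, *Ifit2*, *Ifit3*, *Isg15*, *Irf7*, *Usp18*, *Rsad2*, *Oasl2* and *Mx1*, were followed in brown adipose tissue (BAT) across the BXD population of inbred mouse strains. Each of the 9 was taken by its gene symbol from the 24657 symbols on the array, and each was measured by 1 probe set. BXD strains are inbred lines descended from crosses of C57BL/6J with DBA/2J, and each carries a fixed mosaic of the genomes of both parents. The arrays covered 35 BXD strains and 2 parents, 1 array for each strain. All were males of 29 weeks, fed chow, fasted overnight and perfused, and the RNA of about 5 mice was pooled for each array. The labels give no treatment or transgene, and the groups are named by strain alone. With 1 array per strain there was no replicate error within a strain, so the spread among strains holds both strain differences and technical error. Expression is given in rescaled units, in which every array was set to a mean of 8 and an SD of 2, and r is Pearson's correlation over strains.

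Type I interferons act through the receptor formed by IFNAR1 and IFNAR2, which signals through JAK1 and TYK2 to transcription factors. These bind interferon-stimulated response elements and switch on a large set of antiviral genes. *Irf7* encodes the transcription factor that amplifies interferon production. *Ifit1*, *Ifit2* and *Ifit3* encode RNA-binding proteins that restrict viral translation, *Rsad2* encodes viperin, *Oasl2* is a relative of the 2'-5'-oligoadenylate synthetases and *Mx1* encodes an antiviral GTPase that is defective in most laboratory strains. *Isg15* encodes a ubiquitin-like modifier, and *Usp18* encodes the protease that removes it and also dampens receptor signalling. In uninfected tissue such genes are known to be transcribed at a low tonic level.

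The promoters of 5 of the 9 genes are shown because they compare genes that varied together with genes that did not, as described further on. *Isg15*, one of the latter, gave signal that could not be told from background, so its lack of covariation says little. Each line holds the 200 bases before the RefSeq start (build GRCm38.p6), read 5' to 3' on the strand of the gene, and the capitals mark matches to GAAA, any 2 bases and GAAA, or TTTC, any 2 bases and TTTC where the match is on the opposite strand, the core of an interferon-stimulated response element.
Ifit1 (chr19:34640689-34640888, + strand): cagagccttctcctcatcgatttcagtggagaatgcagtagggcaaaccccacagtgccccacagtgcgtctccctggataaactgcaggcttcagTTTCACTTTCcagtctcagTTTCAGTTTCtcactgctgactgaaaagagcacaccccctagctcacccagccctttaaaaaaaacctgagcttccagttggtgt
Ifit3 (chr19:34583329-34583528, + strand): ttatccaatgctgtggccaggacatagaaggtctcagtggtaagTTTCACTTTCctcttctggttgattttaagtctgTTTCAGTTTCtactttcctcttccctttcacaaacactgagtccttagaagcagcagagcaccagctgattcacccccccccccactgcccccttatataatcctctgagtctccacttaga
Isg15 (chr4:156200819-156201018, - strand): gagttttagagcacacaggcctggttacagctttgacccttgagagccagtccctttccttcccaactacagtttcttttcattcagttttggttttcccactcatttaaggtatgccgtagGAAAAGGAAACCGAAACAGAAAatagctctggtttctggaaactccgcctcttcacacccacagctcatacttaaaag
Irf7 (chr7:141266425-141266624, - strand): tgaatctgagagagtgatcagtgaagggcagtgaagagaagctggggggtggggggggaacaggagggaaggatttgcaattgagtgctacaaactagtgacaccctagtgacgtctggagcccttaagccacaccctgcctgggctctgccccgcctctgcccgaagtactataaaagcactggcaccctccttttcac
Oasl2 (chr5:114896734-114896933, + strand): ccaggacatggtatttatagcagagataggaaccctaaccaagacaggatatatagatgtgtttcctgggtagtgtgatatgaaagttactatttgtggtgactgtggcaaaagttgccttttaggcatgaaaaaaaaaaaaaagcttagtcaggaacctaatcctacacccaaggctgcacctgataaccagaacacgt

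The promoter table held 7 of the 9 genes in 8 windows, since *Ifit2* has 2 starts. *Usp18* and *Mx1* were not matched. In the 250 bases before the start, the motif was found for 4 genes, *Ifit1*, *Ifit3*, *Isg15* and *Rsad2*, and in 2.98% of all windows of that length (978 of 32851). *Ifit1* and *Ifit3* held the same pair of matches, TTTCACTTTC and TTTCAGTTTC, which began 104 and 85 bases before the start of *Ifit1* and 156 and 122 bases before that of *Ifit3*. *Isg15* held 3 overlapping matches within 78 bases of its start, and *Rsad2* held TTTCATTTTC at 120 bases. The windows of *Irf7*, *Oasl2* and *Ifit2* held none, which says only that these letters are absent from them. The 3 *Ifit* genes lie side by side on chromosome 19, in the order *Ifit2*, *Ifit3*, *Ifit1*, with the related genes *Ifit1bl1*, *Ifit3b* and *Ifit1bl2* between *Ifit3* and *Ifit1*. Probe signals of such close relatives may be shared. The other members lie on separate chromosomes, *Isg15* on 4, *Oasl2* on 5, *Usp18* on 6, *Irf7* on 7, *Rsad2* on 12 and *Mx1* on 16, where RefSeq lists *Mx1* as a transcribed pseudogene.

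As a guide to background, the 1128 olfactory receptor probe sets, which are not expected to be transcribed in fat, lay at 6.00 in the median and reached 7.94 at the 95th percentile. The mean over 35 strains was above this limit for 6 of the 9 genes and for 47.2% of all transcripts. The labelled tissue was checked with 8 brown adipocyte genes, whose mean lay between 11.5 and 12.7 in every strain. Skeletal muscle genes were also high, with a list mean between 9.704 in BXD65 and 13.6 in BXD97. Liver genes had a median of 7.24 but reached 12.6 in BXD70, so the RNA of that strain stood apart. Across all pairs of arrays r lay between 0.968 and 0.987. Because this is bulk tissue, fewer cells of a type and less RNA per cell cannot be told apart.

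**Figure D1:**
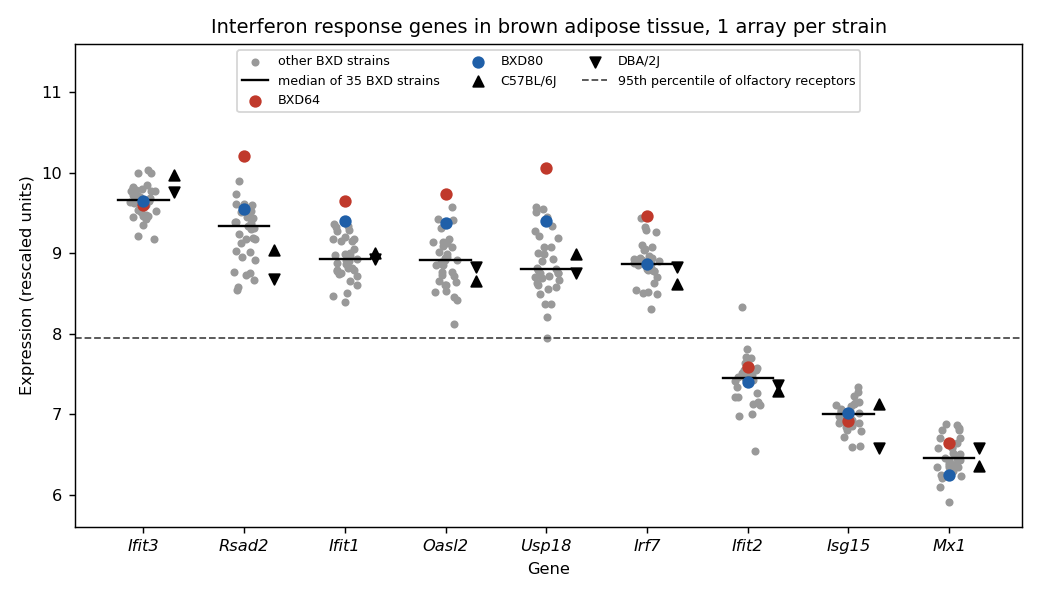
Expression of the 9 genes in BAT in rescaled units, with 1 point per BXD strain, a bar at the median of the 35 strains and triangles for the parents. BXD64 is the highest strain for 5 genes and BXD80 for 0, and *Ifit2*, *Isg15* and *Mx1* lie mostly under the dashed background limit of 7.94.

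Among the antiviral effector genes, *Ifit1*, *Rsad2* and *Oasl2* varied more between strains than the typical transcript, and *Ifit3* did not. *Ifit1* (probe set 17358832) had a mean of 8.96 ± 0.288 (SD over strains, n = 35), from 8.394 in BXD75 through a median of 8.923 to 9.645 in BXD64. *Rsad2* (17280327) was at 9.28 ± 0.381, from 8.545 in BXD55 through 9.34 to 10.21 in BXD64. *Oasl2* (17441037) was at 8.92 ± 0.348, from 8.124 in BXD87 through 8.914 to 9.732 in BXD64. For all 3 of these genes the same strain, BXD64, was highest, and it stood above the next strain by 0.249, 0.314 and 0.154 units. *Ifit3* (17358821) was at 9.64 ± 0.198, from 9.174 in BXD90 through 9.656 to 10.036 in BXD103, and its SD was near the median SD of all transcripts, 0.207. *Ifit2* (17358815) was at 7.42 ± 0.297, from 6.537 in BXD48 through 7.453 to 8.337 in BXD103, and it passed the background limit in only 1 strain. *Mx1* (17332531) was at 6.48 ± 0.226, from 5.903 in BXD69 through 6.455 to 6.874 in BXD90, under the limit in every strain. Levels of different genes come from different probe sets and cannot be ranked against each other.

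Among the regulators, *Usp18* and *Irf7* were above background in every strain and *Isg15* in none. *Irf7* (17497813) was at 8.89 ± 0.262, from 8.306 in BXD95 through 8.863 to 9.467 in BXD64, with BXD61 next at 9.432. *Usp18* (17462437) varied most of the 9 genes, at 8.91 ± 0.438, from 7.945 in BXD95 through 8.802 to 10.061 in BXD64. This range of 2.116 units compares with a median range of 0.899 over all transcripts, and the SD of *Usp18* was at percentile 90.6 of all transcripts. *Isg15* (17434023), the modifier that *Usp18* removes, was at 6.97 ± 0.164, from 6.587 in BXD81 through 6.997 to 7.332 in BXD97. *Isg15* was under the background limit in every strain, and its SD was smaller than the median SD of the olfactory receptors, 0.238. The values of *Isg15* and *Mx1* therefore cannot be told from background signal on this array.

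BXD64, a strain chosen here after its values were seen, was highest for *Ifit1*, *Irf7*, *Usp18*, *Rsad2* and *Oasl2*, that is for 5 of 9 genes, against 1.96% of all transcripts. It lay above the mean of the remaining 34 strains by 2.62 SD for *Ifit1*, 2.43 for *Irf7*, 3.01 for *Usp18*, 2.75 for *Rsad2* and 2.58 for *Oasl2*. For *Ifit2*, *Ifit3*, *Isg15* and *Mx1* it was 0.58, -0.24, -0.38 and 0.72 SD. The median over all 41155 transcripts in BXD64 was 0.01 SD. At the low end, BXD87 was among the lowest 5 strains for 8 of 9 genes, 5 of them above background, against 15.1% of all transcripts. BXD95 was among the lowest 5 for 5 genes, 4 of them above background, against 17% of all transcripts. BXD49 was among the highest 5 strains for 6 genes, 5 of them above background, against 14.6% of all transcripts, and among the lowest 5 for 2. These 3 strains were chosen after their values were seen. These ranks rest on 1 pool per strain and have no replicate check.

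BXD80 was the highest strain for 0 of the 9 genes, against 3% of all transcripts. It was next to highest for *Ifit1* at 9.396, and took rank 5 for *Oasl2* at 9.375, rank 6 for *Usp18* at 9.397 and rank 8 for *Rsad2* at 9.55. Its *Irf7*, 8.863, was the median of the strains, and its *Ifit3* (9.648), *Isg15* (7.01), *Ifit2* (7.405) and *Mx1* (6.239) ranked 20, 15, 24 and 31 from the top. The range of every one of the 9 genes was the same with and without BXD80. Leaving it out changed the SD of *Usp18* from 0.438 to 0.436 and that of *Ifit1* from 0.288 to 0.283.

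Other genes of the response did peak in BXD80. Of 109 pathway genes, grouped by role, 23 were highest in BXD80 and 10 in BXD64, against 3% and 1.96% of all transcripts. Among 10 genes of the type II interferon response, which is driven by interferon gamma, 6 were highest in BXD80. *Ifng*, which encodes interferon gamma and is in this list, was not among the 6. Its mean of 7.557 was under the background limit, and it ranked 5 in BXD80 (7.84) and 3 in BXD64 (7.914). *Cxcl9*, a chemokine that attracts T cells, was at 13.031 in BXD80 against a mean of 11.2 ± 0.702 over the strains. *Igtp*, an interferon-induced GTPase, was at 11.55 against 9.43 ± 0.552. Further genes with their highest value in BXD80 were *Stat2* (10.063), *Irf1* (9.97), *Irf8* (8.912) and *Uba7* (10.583), the activating enzyme for ISG15. More than 2 SD above the other strains in BXD80 lay 6 of 10 type II genes and 0 of the 9 type I members, against 3.13% of all transcripts. Some of the other type I lists were also high in BXD80. More than 2 SD above the other strains lay 9 of 42 other induced genes, 3 of 8 receptor and signalling genes and 3 of 7 interferon regulatory factors. The counts were 2 of 14 for sensors and adaptors and 2 of 6 for ISG15 conjugation genes. Negative regulators had 0 of 6, and interferon ligands had 1 of 18 with a median of -0.22 SD. The mean of the 42 induced genes in BXD80 was the highest of the 35 strains at 9.297. This rise of the induced genes was not particular to BXD80. In BXD64 11 of the 42 lay above 2 SD, with 1 of 8 receptor and signalling genes and 0 of 7 interferon regulatory factors. The mean of the 42 in BXD64 ranked 2 at 9.239. T cell markers were high in the same strain: 5 of 6 were more than 2 SD high in BXD80, and the list mean of 8.40 was the highest of the 35 strains, whose median was 7.53 and whose lowest was 7.25, although only 1 of the 6 markers was above background on average. In BXD64 0 of 6 T cell markers and 0 of 10 type II genes were more than 2 SD high, against 1.92% of all transcripts. In lists this short a count of 0 is near that share, as is the 0 of 9 members in BXD80 near 3.13%. The part of T cells in the BXD80 values was not tested.

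**Figure D2:**
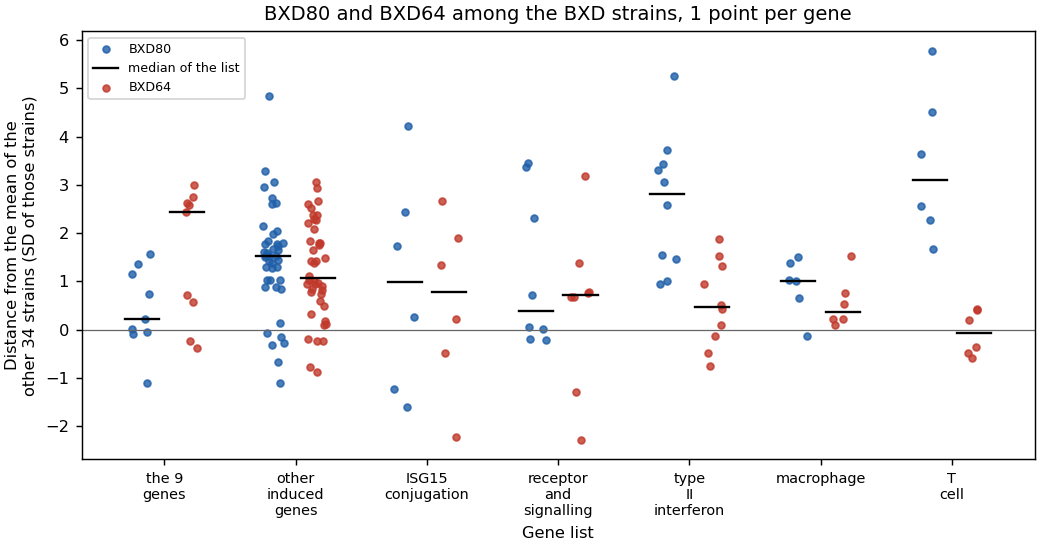
BXD80 and BXD64 set against the mean of the remaining 34 strains, in SD of those 34, with 1 point per gene and a bar at the median of each list. The 9 members have a median of 2.43 SD in BXD64 and 0.22 in BXD80, and the type II interferon and T cell lists have medians of 2.82 and 3.11 SD in BXD80.

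Covariation among the 9 genes was measured over their 36 pairs. The median r was 0.294 over 35 strains and 0.295 without BXD80, against 0.002 over all pairs of transcripts. An r of at least 0.5 was found for 10 of 36 pairs with and without BXD80, and for 0.539% of all transcript pairs. Without BXD64 the median was 0.249 and 9 pairs reached 0.5. The higher r lay among 6 genes, *Ifit1*, *Ifit2*, *Irf7*, *Usp18*, *Rsad2* and *Oasl2*, whose 15 pairs had a median r of 0.563 and lay between 0.320 and 0.791. The 21 pairs with *Ifit3*, *Isg15* or *Mx1* had a median of 0.112, and 0 of them reached 0.5. This grouping was made after the values were seen and has no test. *Ifit3* was above background in every strain, while *Isg15* and *Mx1*, and *Ifit2* among the 6 genes of higher r, had means below the limit.

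**Figure D3:**
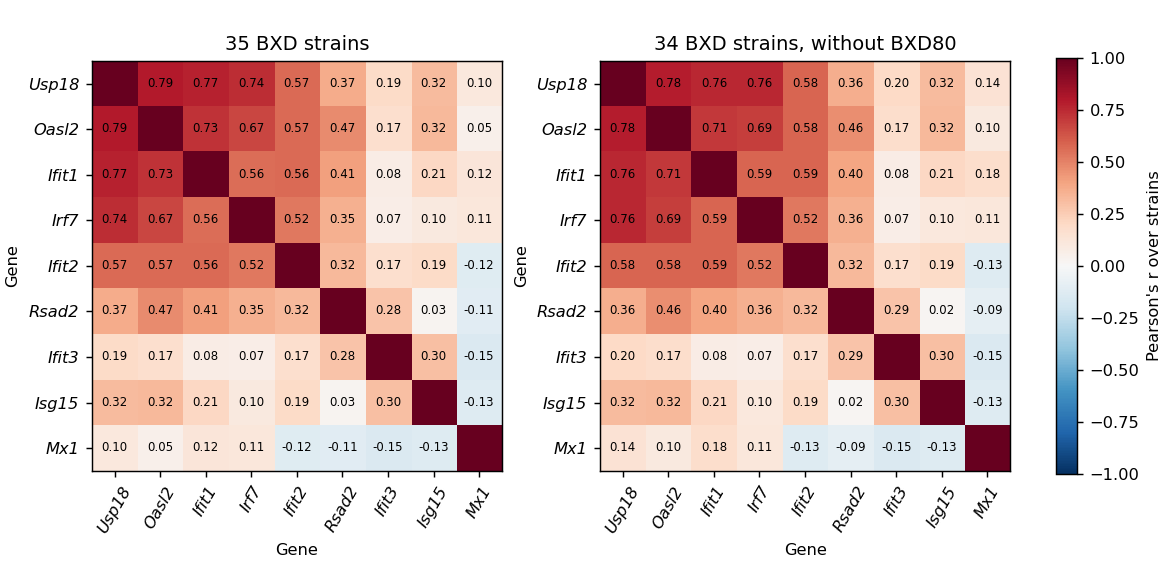
Pearson's r between the 9 genes over 35 BXD strains (left) and over 34 strains without BXD80 (right), with r printed in each cell. *Usp18*, *Oasl2*, *Ifit1* and *Irf7* form the block of highest r in both panels, and *Ifit3*, *Isg15* and *Mx1* stay under 0.5 with every other gene.

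To set these pairs against the whole array, each gene was used in turn as the covariate of a limma model over all other 41154 transcripts, with Benjamini-Hochberg adjustment over all of them. In these fits 5 of the 36 pairs passed an adjusted p of 0.05 with either gene as the covariate, the same 5 over 35 strains and without BXD80. *Usp18* and *Oasl2* had the highest r, 0.791, with a rho of 0.811 (each p = 1e-05, the smallest that 100000 permutations can give) and a limma adjusted p of 0.000138 with *Usp18* as the covariate. It was 0.765 without the 2 strains farthest in *Usp18* and 0.782 without BXD80. *Ifit1* and *Usp18* followed at 0.768 (rho 0.742, permutation p = 1e-05 for each, adjusted p = 0.000488), which was 0.741 without the 2 strains farthest in *Ifit1* and 0.758 without BXD80. *Ifit1* and *Oasl2* were at 0.726 (rho 0.729, permutation p = 1e-05 for each, adjusted p = 0.00407), which was 0.654 without the 2 farthest and 0.709 without BXD80. Without BXD64 the last of these pairs had an adjusted p of 0.0593 with *Ifit1* as the covariate, whereas *Usp18* passed with *Ifit1* and with *Oasl2* whichever single strain was left out.

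*Irf7* was the covariate of most interest, as the factor that amplifies the response. Over 35 strains 22 of 41154 transcripts (0.0535%) passed with *Irf7*, and among them were 2 of the other 8 genes. *Usp18* had an r of 0.738 with *Irf7* (permutation p = 2e-05, rho 0.659 with p = 5e-05, adjusted p = 0.00392), which was 0.726 without BXD61 and BXD64, the strains farthest in *Irf7*. *Oasl2* had an r of 0.666 (permutation p = 1e-05, rho 0.543 with p = 0.00093, adjusted p = 0.0326), which fell to 0.536 without the same strains. *Ifit1* had an r of 0.561 (permutation p = 0.00047, rho 0.487 with p = 0.0033) and did not pass over all transcripts (adjusted p = 0.127). *Ifit3* had an r of 0.065 with *Irf7* (permutation p = 0.71, rho -0.054 with p = 0.76). *Usp18* passed with *Irf7* whichever single strain was left out, whereas *Oasl2* had adjusted p-values of 0.0507, 0.178, 0.066 and 0.0795 without BXD48, BXD61, BXD64 and BXD87.

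**Figure D4:**
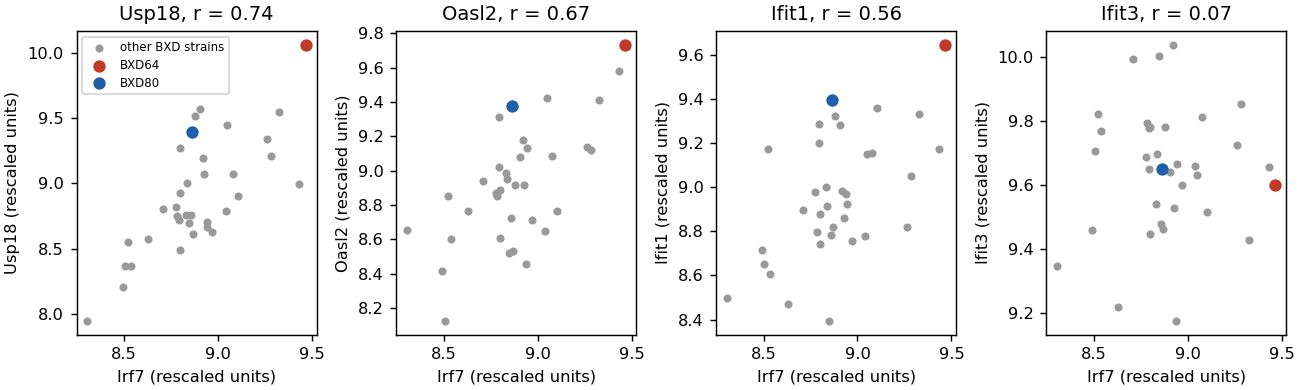
Expression of *Usp18*, *Oasl2*, *Ifit1* and *Ifit3* against *Irf7* in rescaled units, with 1 point per BXD strain. BXD64 is highest in the first 3 panels, BXD80 lies at the median of *Irf7*, and *Ifit3* has an r of 0.07.

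Without BXD80 the number of transcripts that passed with *Irf7* rose from 22 to 57 (0.139%), and all 22 were among the 57. The 2 members that passed were again *Usp18* (r = 0.756, adjusted p = 0.00173) and *Oasl2* (r = 0.688, adjusted p = 0.0138). A rise of this size was not particular to BXD80, since 56 passed without BXD49 and 40 without BXD69 or BXD97. The total fell to 2 without BXD61, 7 without BXD48, 9 without BXD43, BXD87 or BXD95, 11 without BXD89 and 13 without BXD62. With *Usp18* as the covariate 15 transcripts (0.0364%) passed over 35 strains, and with *Oasl2* 31 (0.0753%), and 3 of the 8 other members were in each set. With *Ifit1* 10 transcripts (0.0243%) passed, 2 of them members. Without BXD80, 13 transcripts (0.0316%) passed with *Usp18*, 22 (0.0535%) with *Oasl2* and 4 (0.00972%) with *Ifit1*, and the same members were among them. Without BXD64, 33 transcripts (0.0802%) passed with *Irf7* and 1 member, *Usp18*, was among them. *Usp18* as the covariate then gave 11 (0.0267%) with 3 members, *Oasl2* 34 (0.0826%) with 2, *Ifit1* 4 (0.00972%) with 1 and *Ifit2* 1 (0.00243%) with 0. Leaving out each strain in turn gave totals from 11 to 23 for *Usp18* (23 without BXD45), from 18 to 57 for *Oasl2* (18 without BXD87, 20 without BXD61 and 57 without BXD69) and from 4 to 15 for *Ifit1* (4 without BXD64 or BXD80). Over all 35 strains, with *Ifit2*, *Ifit3*, *Isg15*, *Rsad2* or *Mx1* as the covariate 0 transcripts passed in limma, and between 2374 and 3089 had an unadjusted p under 0.05.

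Of 109 pathway genes 5 passed over 35 strains, all with positive r, and the median r of the 109 was 0.304 against 0.011 over all transcripts. *Oas2*, an oligoadenylate synthetase, had an r of 0.737 (adjusted p = 0.00392), *Lgals3bp*, a secreted glycoprotein, 0.692 (adjusted p = 0.0184), *Ifi44* 0.675 (adjusted p = 0.0244), *Irf1*, a transcription factor of both interferon responses, 0.666 (adjusted p = 0.0332) and *Oas1b* 0.658 (adjusted p = 0.0326). Without BXD80 11 of 109 passed. The 6 additional genes were *Herc6*, the ISG15 ligase of the mouse (adjusted p = 0.0147), *Uba7* and *Zbp1* (0.0252 each), the RNA sensor gene *Ifih1* (0.0379), *Irf9* (0.0437) and *Ifitm3* (0.0495). Leaving out any other single strain of the 35 gave between 1 (BXD61) and 7, with 2 without BXD48 or BXD95 and 3 without BXD43, BXD64 or BXD81. The total of 11 without BXD80 likewise dropped to 4 without BXD61 and to 6 without BXD43, BXD48 or BXD87, and was 15 at most.

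By role, 4 of 42 other induced genes, 1 of 7 interferon regulatory factors and 0 of 14 sensors and adaptors passed over 35 strains, and 6 of the 14 had an unadjusted p under 0.05 in limma. None of the 8 genes of the receptor and its signalling passed with all 35 strains, and 5 of them had an unadjusted p under 0.05. Without BXD80 2 sensors passed, *Zbp1* and *Ifih1*, and *Irf9* passed among the 8 signalling genes. Of 6 ISG15 conjugation genes 0 passed over 35 strains, with 4 at an unadjusted p under 0.05, and 2 without BXD80, and 0 of 6 negative regulators passed in either fit, with 2 at an unadjusted p under 0.05. The receptor genes *Ifnar1* and *Ifnar2* were highly expressed, at 10.7 and 12.7, with r of -0.08 and -0.17. Of 18 interferon ligand genes 0 passed, 1 had an unadjusted p under 0.05, 6 were above background and the median r was -0.002. *Ifnb1* was at 6.14, near the olfactory receptor median, with an r of -0.03. The 10 type II genes all had positive r, with a median of 0.343 over 35 strains and 0.403 without BXD80, and 0 passed in either fit, with 5 and 6 at an unadjusted p under 0.05.

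**Figure D5:**
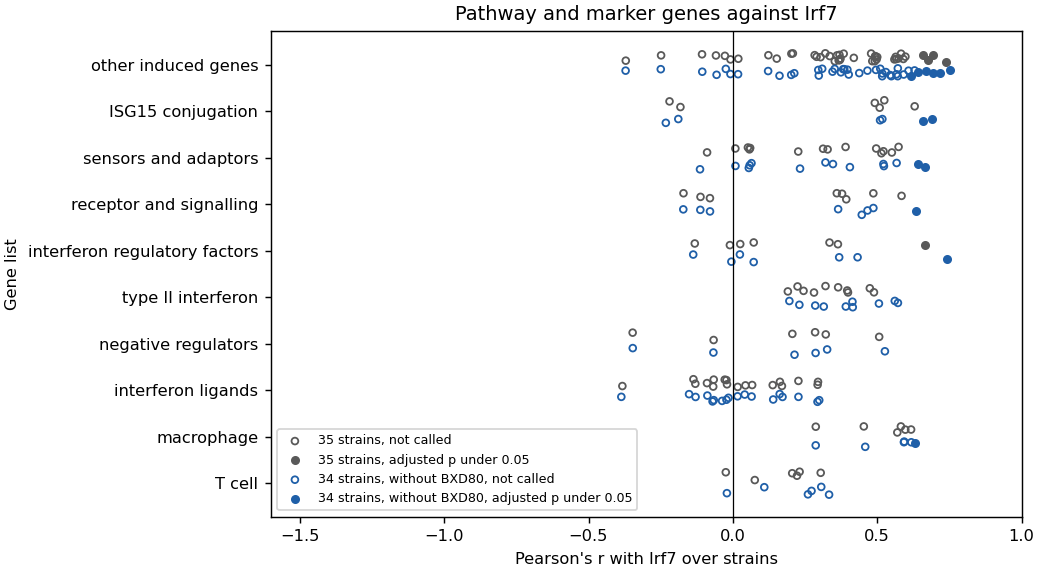
Pearson's r with *Irf7* of the genes of 8 pathway lists and 2 marker lists, over 35 strains and over 34 without BXD80, with filled points for an adjusted p under 0.05 in limma. The filled points lie at positive r only, and the interferon ligands scatter around 0.

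All 6 macrophage markers were above background and had positive r, between 0.287 and 0.617, with a median of 0.576, and 0 of 6 passed over 35 strains in limma, with 5 at an unadjusted p under 0.05. Outside this list *Siglec1*, a sialic acid receptor of macrophages, did pass over 35 strains (limma adjusted p = 0.0118). So did *C1qb* (0.0394), *Ly86* (0.0425) and *C1qc* (0.0484). *Csf1r*, the receptor for the macrophage growth factor, had an adjusted p of 0.0609 over 35 strains, 0.0404 without BXD80 and 0.0395 without BXD64. The list mean ran from 8.605 in BXD87 to 10.455 in BXD61, which were a strain low in 8 of the 9 members and the strain next to highest in *Irf7*. BXD64, highest in *Irf7*, ranked 8 for the same list at 9.49. The median r of the macrophage markers was 0.567 with *Oasl2* and 0.405 with *Usp18*, and it was -0.001 with *Ifit3*. The 6 plasmacytoid dendritic cell markers had a median r of 0.173 with *Irf7*, 6 neutrophil markers 0.058 and 8 brown adipocyte genes -0.126. Only 2 of the dendritic cell markers and 0 of the neutrophil markers were above background, so their low r says little about these cells. In limma 0 of each passed, and 2, 0 and 1 of them had an unadjusted p under 0.05. The T cell markers, 1 of 6 above background, had a median r of 0.214 with *Irf7*, and 0 of 6 passed, with 0 at an unadjusted p under 0.05. The part of macrophage number in the *Irf7* relations was not tested.

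The genes most alike each member were taken from transcripts above background. For *Irf7* these were *Oas2* (0.737), *Siglec1* (0.710), a sialic acid receptor of macrophages, *Lgals3bp*, *Pld4* (0.680) and *Olfml2a* (0.676), and the most opposite were *Nkiras1* (-0.700), *Eif2s3y* (-0.672) and *Psmd12* (-0.666). Without BXD80 *Siglec1*, *Oas2*, *Lgals3bp* and *Pld4* were again among the most alike, with *Siglec1* (0.756) before *Oas2* (0.751), and *Irf1* (0.741) took a place among the 5 most alike. For *Ifit1* they were *Ifi44* (0.818) and *Oas2* (0.759), for *Usp18* *Ifi44* (0.808) and *Lgals3bp* (0.767) and for *Oasl2* *Oas2* (0.824) and *Ifi44* (0.784). *Oas2*, *Ifi44* and *Lgals3bp*, all interferon-induced, filled most of these places. *Ifit2* was nearest to *Herc6* (0.634, adjusted p = 0.462) and *Arhgef25* (0.614), and *Rsad2* to *Sp100* (0.661) and *Itsn2* (0.614). *Herc6* and *Sp100* are interferon-induced.

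Among the genes most alike *Ifit3* was *Kif13a* (0.609, adjusted p = 0.325), a kinesin motor. *Isg15* was nearest to *Dnajb5* (0.660, adjusted p = 0.0835) and *Myadml2* (0.656), and *Mx1*, which was at background, to *Mir677* (0.699, adjusted p = 0.122) and *Cpsf3l* (0.628). All 8 skeletal muscle markers had positive r with *Ifit3*, between 0.384 and 0.539, and with *Isg15*, between 0.401 and 0.502. All 8 were also positive with *Ifit1*, *Ifit2*, *Irf7*, *Usp18* and *Oasl2*, with lower medians of 0.194, 0.157, 0.149, 0.294 and 0.316. None of these muscle genes passed in limma with *Ifit3* or *Isg15*, with lowest adjusted p-values of 0.325 and 0.192. The share of muscle in each sample was not measured apart from these genes, and its part in the *Ifit3* and *Isg15* values was not tested.

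*Ahr*, the aryl hydrocarbon receptor gene at the centre of the study, was run as the covariate in the same way. None of the 9 members passed with *Ahr* in limma, and 0 of 41154 transcripts did, with 3388 at an unadjusted p under 0.05. *Rsad2* was the 1 member among these, with an r of 0.529 and an adjusted p of 0.275, and the other 8 had r between -0.151 and 0.304. *Rsad2* and *Ahr* both lie on chromosome 12. Parental segments that the strains inherited across both genes therefore cannot be told apart from a relation to *Ahr* itself.

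The parental strains gave the 9 genes in both directions. DBA/2J was higher than C57BL/6J for 4 genes, *Irf7* (8.832 against 8.622), *Oasl2* (8.829 against 8.655), *Mx1* (6.576 against 6.352) and *Ifit2* (7.363 against 7.283), and 51.8% of all transcripts were higher in DBA/2J. It was lower for *Ifit1* (8.924 against 9.001), *Ifit3* (9.755 against 9.975), *Usp18* (8.749 against 8.99), *Rsad2* (8.674 against 9.034) and *Isg15* (6.583 against 7.121). All 9 differences lay within the 95th percentile of the absolute parental difference over all transcripts, 0.770, whose median was 0.182, and with 1 array per parent none could be tested. BXD values reached beyond both parents. *Rsad2* was above both in 25 of 35 strains and below both in 3, and *Usp18* was above both in 14 and below both in 14. *Ifit3* was above both in 3 and below both in 24, and *Isg15* was above both in 6 and below both in 0. With 1 array per parent, technical error in the parental values enters all of these counts.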

How the data were processed

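Expression in BAT was measured with Affymetrix Mouse Gene 2.0 arrays in 35 BXD strains and both parents, 1 array per strain. The deposited values are scores: the authors processed the arrays with Affymetrix Expression Console and rescaled each to a mean of 8 and an SD of 2. The log base and the summary method are not given in the sources used here. Rescaling fixes the spread of every array, so differences are relative within an array. Array depth has no count equivalent, and the number of arrays limits the precision.

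The 190 control probe sets were left out of 41345. Of the rest, 28392 carried a gene symbol. A gene with several probe sets was represented by that with the highest mean over the 35 strains. Background was the 95th percentile of olfactory receptor probe sets. limma 3.58.1 (R 4.3.3) was fitted over all transcripts, with a member's level as a continuous covariate and Benjamini-Hochberg adjustment over all transcripts (threshold 0.05), and was tested on simulated data. Pearson's r and Spearman's rho had two-sided permutation p-values (100000 permutations) with no adjustment over the 36 pairs. Python 3.11.15 was used for the rest. p-values measure spread between strains, not between animals. Named genes were all 9 members, for *Irf7* the 5 non-member genes above background with the highest r and the 3 with the lowest, for each other member the 2 most alike, and pathway genes that passed. Other named genes were chosen after their values were seen. The members and lists were chosen with earlier results of these data known. Alternatives were other scalings, ranks, filters, covariates, added parents and left-out strains. Sequences and gene order came from RefSeq tables (GRCm38.p6). Some genes named by these rules are not reported here.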

Additional observations from a re-analysis of the deposited data

How the results depend on the processing

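No paired analysis was possible because each strain had 1 array and no replicate numbers were shared. The 2 members that passed with *Irf7* over 35 strains became 1 on ranks, with the muscle list as a covariate, without the 2 farthest strains (BXD61 and BXD64) and without BXD64, the last setting chosen after seeing the data. Leaving out each strain in turn gave 1 to 2 (1 without BXD48, BXD61, BXD64 or BXD87). Without BXD80 the 2 became 1 on ranks and without the 2 farthest strains. With only transcripts above background tested, 3 of 5 members passed. Leaving out each further strain gave 1 to 3 (1 without BXD61). The 5 pathway genes became 3 after centring, 1 on ranks, 3 when either the muscle list mean or principal component 1 entered as covariate, 0 without the 2 farthest strains and 3 without BXD64. They became 4 with quantile normalization, 7 with the parents added and 6 of 79 when only transcripts above background were tested. Leaving out each strain in turn gave 1 to 11. Without BXD80 the 11 became 4 on ranks, 1 without the 2 farthest strains and between 8 and 12 in the other settings. Leaving out each further strain gave 4 to 15. *Usp18* passed with *Irf7* under every alternative run, while *Oasl2* over 35 strains did not pass on ranks (adjusted p = 0.166), with the muscle list (0.0529) or without the 2 farthest strains (0.271), or without any of 4 single strains. The cause of these changes was not tested, and some of the settings also had fewer strains. The median r of the members ranged from 0.241 to 0.310 over left-out strains. No result reversed, and *Ahr* gave 0 members throughout. Signal at background limits *Ifit2*, *Isg15* and *Mx1*.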
